A study of Mus musculus with 6 samples.

Results

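Expression of 10 direct transcriptional targets of the tumour suppressor p53 was examined in primary mouse myoblasts, in libraries labelled eIF5A-KO and in WT libraries. The genes were chosen by name as well known p53 targets (Mdm2, Ccng1, Bax, Bbc3, Zmat3, Trp53inp1, Phlda3, Sesn1, Eda2r and Aen) and by no threshold on their values, although earlier results of these data were known when the list was made. All 10 were present among the 54532 genes of the count table, and all 10 were expressed highly enough to be tested. eIF5A is the translation factor that carries the spermidine-derived residue hypusine, and the study asked what its loss does to muscle satellite cells and the myoblasts they give rise to.

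The myoblasts came from hind-limb muscle of mice 3 weeks old. They were freed by enzyme digestion and filtration without a cell sort, grown with FGF at 10 ug/ml and collected at day 2, with 3 libraries per group. The libraries labelled eIF5A-KO came from Pax7 CreERT2/+;eIF5A f/f mice given tamoxifen. Cre is then active only in cells of the Pax7 lineage, so any other cell in the culture keeps the gene. The study speaks of WT littermates for such myoblasts, and it gives its WT controls as Pax7 CreERT2/+ in the text and as Pax7+/+;eIF5A f/f in a legend. The study calls the sequencing a triplicate of experiments without naming the animals or cultures behind each library, so the p-values measure only the spread between these libraries.

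In unstressed cells, p53 is kept scarce by Mdm2, which tags it for degradation. DNA damage, disturbed ribosome assembly or oncogene activity frees p53, which then binds a pair of short half-sites near its target genes and raises their transcription. The targets halt the cell cycle, repair DNA, restrain growth signalling or trigger apoptosis, and Mdm2, itself a target, closes a feedback loop. In satellite cells, p53 is known to take part in the balance between survival and death at activation.

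The p53 consensus element, a pair of 10-base half-sites that reads alike on both strands, was searched without a spacer in the promoter windows of RefSeq (GRCm38.p6), from 250 bases before to 50 bases after the start of each gene. A window was found for 8 of the 10 genes, and Zmat3 and Trp53inp1 had no entry. The 5 best matches are shown beside the expression values as the stretches nearest to the consensus, while the genes themselves were grouped by name. Capitals mark the bases that match the consensus.

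Ccng1: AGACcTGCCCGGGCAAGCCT

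Bax: AGcaTAtCCCAGGCAAGCTT

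Bbc3: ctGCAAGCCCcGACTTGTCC

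Sesn1: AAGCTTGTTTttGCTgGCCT

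Aen: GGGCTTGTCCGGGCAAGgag

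The element of Ccng1 lay at chr11:40755462-40755481 on the minus strand, 195 bases before the start, and matched at 19 of 20 positions. Only 0.0884% of all 32817 promoter windows held a match at least as good. The elements of Bax (chr7:45467090-45467109, minus strand), Bbc3 (chr7:16309486-16309505, plus strand), Sesn1 (chr10:41887266-41887285, plus strand) and Aen (chr7:78895937-78895956, plus strand) matched at 17 positions, and 6.29% of all windows held a match at least as good. Those of Bax, Bbc3 and Sesn1 began 211, 97 and 173 bases before the start, and that of Aen began 10 bases after it. RefSeq places the starts used for Bbc3 and Sesn1 inside the span that the count table gives for these genes. For Bbc3, Sesn1 and Aen the best of several windows was taken. Of all genes, 7.20% held a match at 17 or more positions in any of their windows. The best matches of Mdm2 and Phlda3 had 15 positions, a score that 76.6% of windows reached, and that of Eda2r had 14. The known p53 elements of Mdm2 lie in its first intron, outside the window. A match is a description of the letters and not evidence of binding.

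The depth of the libraries was similar, with 16281216 to 17734551 counts on genes each, and each of the 10 targets had 238 to 6598 counts in a library. WT replicate 1 had the largest share of mitochondrial counts, at 5.75%, against 2.11% to 3.50% in the other 5 libraries. Eif5a, the targeted gene, had 1603, 986 and 1238 CPM (read counts scaled to a common depth with TMM factors) in WT replicates 1 to 3 and 1364, 1459 and 1059 CPM in replicates 1 to 3 labelled eIF5A-KO. It differed by a log2 fold change of 0.02 (SE 0.23), with an edgeR adjusted p of 0.993. The transcript level of Eif5a thus did not separate the groups, and the libraries are named by their labels below. Whether the deleted part of the gene is covered by these counts was not tested. The study checked the knockout in satellite cells, by RT-qPCR and by immunostaining for the protein, and reports that it succeeded. Those were other samples than these libraries.

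No p53 target gene differed between the groups at an adjusted p under 0.05 in edgeR's quasi-likelihood test, where p-values were adjusted over all 14679 tested genes. Under this rule, 0.0204% of all tested genes were called. At an unadjusted p under 0.05, 1 of the 10 targets was called, Phlda3, against 6.76% of all tested genes. DESeq2, limma-voom and limma on FPKM also called 0 of the 10 at an adjusted p under 0.05. The mean level was higher in the libraries labelled eIF5A-KO for 6 genes and lower for 4, and the median log2 fold change was 0.12, against -0.01 over all tested genes. The median turned to -0.03 without replicate 3 labelled eIF5A-KO and to -0.006 without WT replicate 1, and it was 0.19 without replicate 1 or replicate 2 labelled eIF5A-KO. A p that misses the threshold does not show that the levels are alike, and the interval of each difference is given with it. In bulk RNA, fewer cells of a type and less RNA per cell cannot be told apart.

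**Figure D1:**
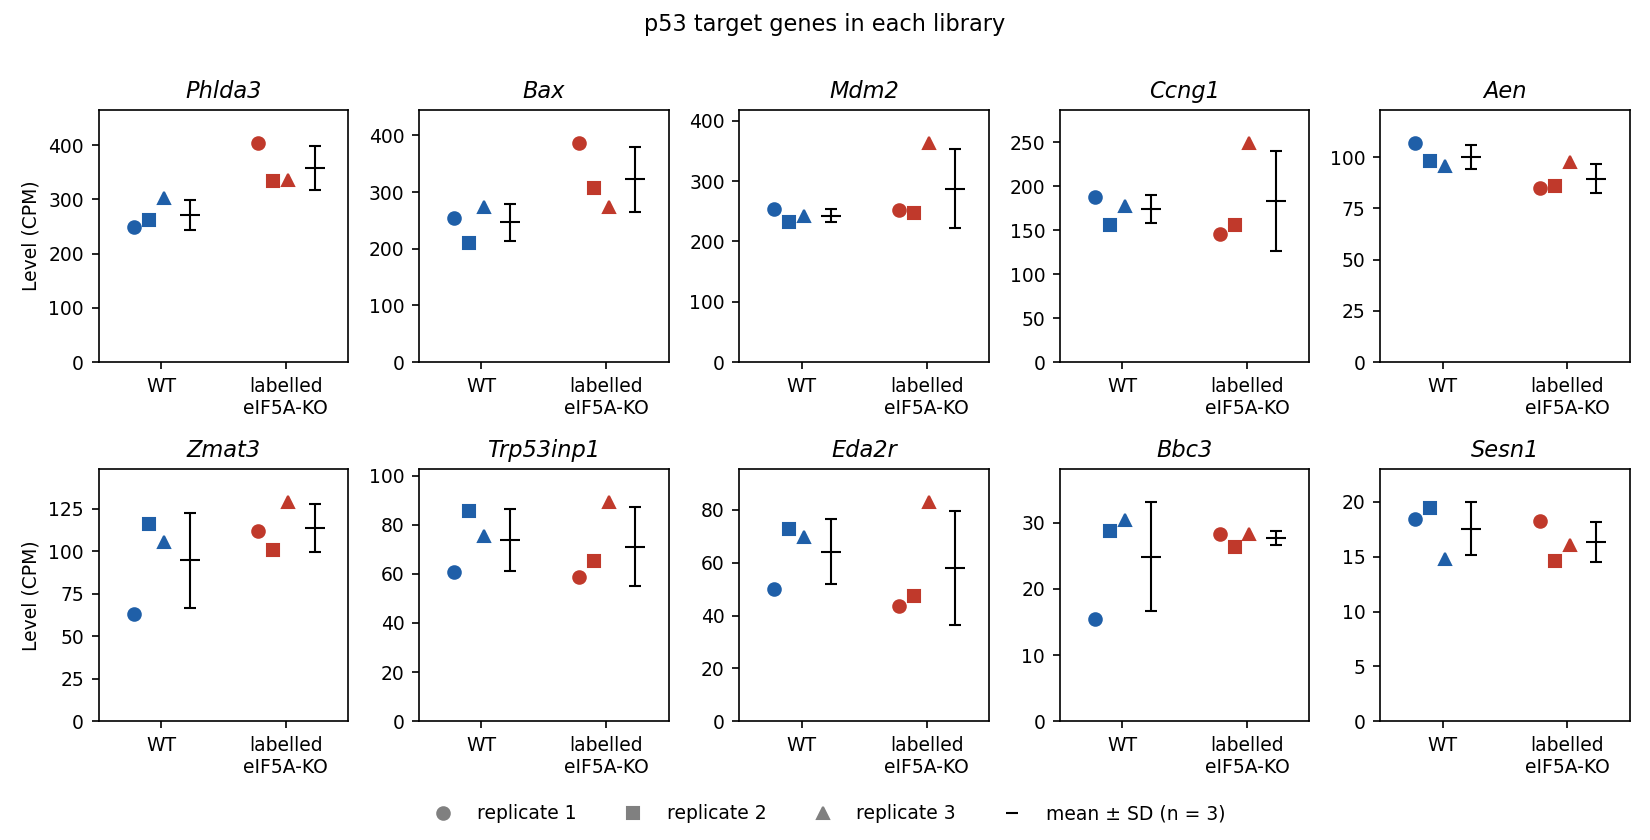
Level of each p53 target gene in CPM (vertical axes, from 0) in the 3 WT libraries (blue) and the 3 libraries labelled eIF5A-KO (red), with the mean and SD of each group. Phlda3 is the gene whose groups do not overlap, and replicate 3 labelled eIF5A-KO is highest for Mdm2, Ccng1, Zmat3, Trp53inp1 and Eda2r.

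Levels were compared between genes in FPKM (reads scaled both to the length of the gene and to the depth of the library), since a longer gene collects more reads. Phlda3 was the most abundant target at 172 ± 18.2 FPKM in WT libraries (SD, n = 3), followed by Bax at 154 ± 20.8 FPKM. The ranges of these neighbours over the 6 libraries overlapped. Mdm2, at 47.2 ± 2.02 FPKM, and Ccng1, at 48.9 ± 4.45 FPKM, formed the next pair, and their ranges overlapped too. Aen, at 17.1 ± 0.93 FPKM, lay below both pairs in every library. Its lowest library, at 14.6 FPKM, was above the highest library of Bbc3, at 14.2 FPKM. Bbc3, Trp53inp1, Eda2r and Zmat3 had overlapping ranges and WT means from 8.20 to 11.6 FPKM. Sesn1 was the least abundant at 4.36 ± 0.59 FPKM, with its highest library at 4.82 FPKM, under the lowest library of Zmat3 at 5.42 FPKM.

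The targets that act on apoptosis were read first. Bax (ENSMUSG00000003873, chr7:45461697-45466898, minus strand) encodes the protein that opens pores in the outer mitochondrial membrane. Its level was 254.5, 209.9 and 274.3 CPM in WT replicates 1 to 3 and 386, 307 and 273.9 CPM in replicates 1 to 3 labelled eIF5A-KO. Replicates 1 and 2 labelled eIF5A-KO lay above every WT library, and replicate 3 lay level with WT replicate 3. In edgeR the log2 fold change was 0.39 (SE 0.20, 95% confidence interval -0.05 to 0.83), with an edgeR p of 0.0768 and an adjusted p of 0.805. Without replicate 1 labelled eIF5A-KO it was 0.25. In FPKM the groups did not overlap, by a gap of 172.7 to 173.0 FPKM, and the exact two-sided permutation p was 0.1, the smallest that 3 against 3 libraries allow. Gm45808, an annotated gene that overlaps Bax on the same strand, had 0 counts.

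Bbc3 (ENSMUSG00000002083, chr7:16308393-16318205, plus strand) encodes Puma, which neutralises the protective members of the Bcl-2 family. It had 15.4, 28.8 and 30.4 CPM in WT libraries and 28.3, 26.4 and 28.3 CPM in those labelled eIF5A-KO. WT replicate 1 lay far below the other 5 libraries, which spanned 26.4 to 30.4 CPM. This came to a log2 fold change of 0.15 (SE 0.25, interval -0.41 to 0.72), and without WT replicate 1 it was -0.09. Its adjusted p in edgeR was 0.959.

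Aen (ENSMUSG00000030609, chr7:78895854-78911209, plus strand) encodes an exonuclease that promotes DNA fragmentation in dying cells. Its level was 106.9, 98.1 and 95.8 CPM in WT libraries and 85.2, 85.7 and 97.6 CPM in those labelled eIF5A-KO. Replicates 1 and 2 labelled eIF5A-KO were below every WT library, and replicate 3 lay among them. As a log2 fold change this was -0.16 (SE 0.16, interval -0.51 to 0.19), with an edgeR adjusted p of 0.918. It ran from -0.23 without replicate 3 labelled eIF5A-KO to -0.11 without WT replicate 1. A stretch of the Aen transcripts is shared with Fstl1 over 345 bases at 91.0% identity. How reads from that stretch were assigned is not given in the sources used here, and whether it alters the count of Aen was not tested.

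Eda2r (ENSMUSG00000034457, chrX:97333840-97377216, minus strand) encodes a receptor of the TNF receptor family that binds ectodysplasin A2. Its values were 50.02, 72.9 and 69.7 CPM in WT libraries and 43.6, 47.4 and 82.9 CPM in those labelled eIF5A-KO. Both the lowest and the highest library carried the label eIF5A-KO, and the coefficient of variation there was 37.4%. Between the groups the log2 fold change was -0.15 (SE 0.27, interval -0.75 to 0.46), with an edgeR adjusted p of 0.966. It was -0.49 without replicate 3 labelled eIF5A-KO and 0.03 without replicate 1 of that label.

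Phlda3 (ENSMUSG00000041801, chr1:135766119-135769136, plus strand) belongs to the targets that restrain growth signalling. Its product holds back the kinase Akt by competing for membrane lipids. It had 249.6, 262 and 303 CPM in WT replicates 1 to 3 and 404, 333 and 335 CPM in replicates 1 to 3 labelled eIF5A-KO. All 3 libraries labelled eIF5A-KO lay above all 3 WT libraries, a separation in this direction that 5.68% of all tested genes had. The ratio of the mean levels was 1.32. The log2 fold change was 0.40 (SE 0.17, interval 0.01 to 0.79), with an edgeR p of 0.0474 and an adjusted p of 0.728. Unadjusted, 2.74% of all tested genes were higher at a p under 0.05, and Phlda3 was the target nearest to the threshold of the test without passing it. With each library left out in turn, its log2 fold change lay between 0.31 and 0.48, and the unadjusted p, from 0.0556 to 0.164, was above 0.05 each time.

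Sesn1 (ENSMUSG00000038332, chr10:41809935-41908424, plus strand) encodes sestrin 1, an inhibitor of mTORC1. It had 18.4, 19.4 and 14.8 CPM in WT libraries and 18.2, 14.6 and 16.1 CPM in those labelled eIF5A-KO. The groups overlapped over nearly their whole range. This came to a log2 fold change of -0.10 (SE 0.19, interval -0.53 to 0.32), with an edgeR adjusted p of 0.966. It ran from -0.21 without WT replicate 3 to -0.02 without replicate 2 labelled eIF5A-KO. The overlapping gene 9930024M15Rik on the same strand had 3 counts in all.

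Mdm2 (ENSMUSG00000020184, chr10:117688875-117710758, minus strand) encodes the ubiquitin ligase that removes p53, and it stands with Ccng1 and Trp53inp1 among the targets that act back on p53. It had 254.0, 232 and 242 CPM in WT libraries and 252, 246 and 363 CPM in those labelled eIF5A-KO. Replicate 3 labelled eIF5A-KO was higher than the other 5 libraries, which lay within 232 to 254.0 CPM. As a log2 fold change this was 0.24 (SE 0.20, interval -0.20 to 0.68), with an edgeR adjusted p of 0.910. Without that replicate it was 0.04. The coefficient of variation was 4.55% in WT libraries and 22.9% in those labelled eIF5A-KO.

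Ccng1 (ENSMUSG00000020326, chr11:40748552-40755311, minus strand) encodes cyclin G1, which directs a phosphatase to Mdm2. Its level was 188, 156 and 177 CPM in WT libraries and 146, 155 and 249 CPM in those labelled eIF5A-KO. Replicates 1 and 2 labelled eIF5A-KO lay below every WT library, and replicate 3 lay above every one. Between the groups the log2 fold change was 0.08 (SE 0.23, interval -0.43 to 0.59), with an edgeR adjusted p of 0.976. Without replicate 3 labelled eIF5A-KO it was -0.20, so that the direction rests on that library.

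Trp53inp1 (ENSMUSG00000028211, chr4:11156431-11174379, plus strand) encodes a nuclear protein that promotes p53 activity and takes part in autophagy. It had 60.7, 85.6 and 75.2 CPM in WT libraries and 58.8, 65.3 and 89.2 CPM in those labelled eIF5A-KO. Here too replicate 3 labelled eIF5A-KO was the highest of the 6 libraries and replicate 1 of that label the lowest. In edgeR the log2 fold change was -0.05 (SE 0.21, interval -0.53 to 0.42), with an edgeR adjusted p of 0.983. The direction rested on single libraries: it was 0.07 without WT replicate 2 or without replicate 1 labelled eIF5A-KO, 0.01 without replicate 2 of that label and -0.25 without replicate 3.

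Zmat3 (ENSMUSG00000027663, chr3:32334792-32366014, minus strand) encodes a zinc finger protein that binds RNA and alters splicing and transcript stability. Its level was 62.9, 116 and 105 CPM in WT libraries and 112, 101 and 129 CPM in those labelled eIF5A-KO. WT replicate 1 was lowest by a wide margin, as for Bbc3. The log2 fold change was 0.26 (SE 0.24, interval -0.27 to 0.80), with an edgeR adjusted p of 0.915, and it was 0.05 without WT replicate 1 and 0.44 without WT replicate 2.

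**Figure D2:**
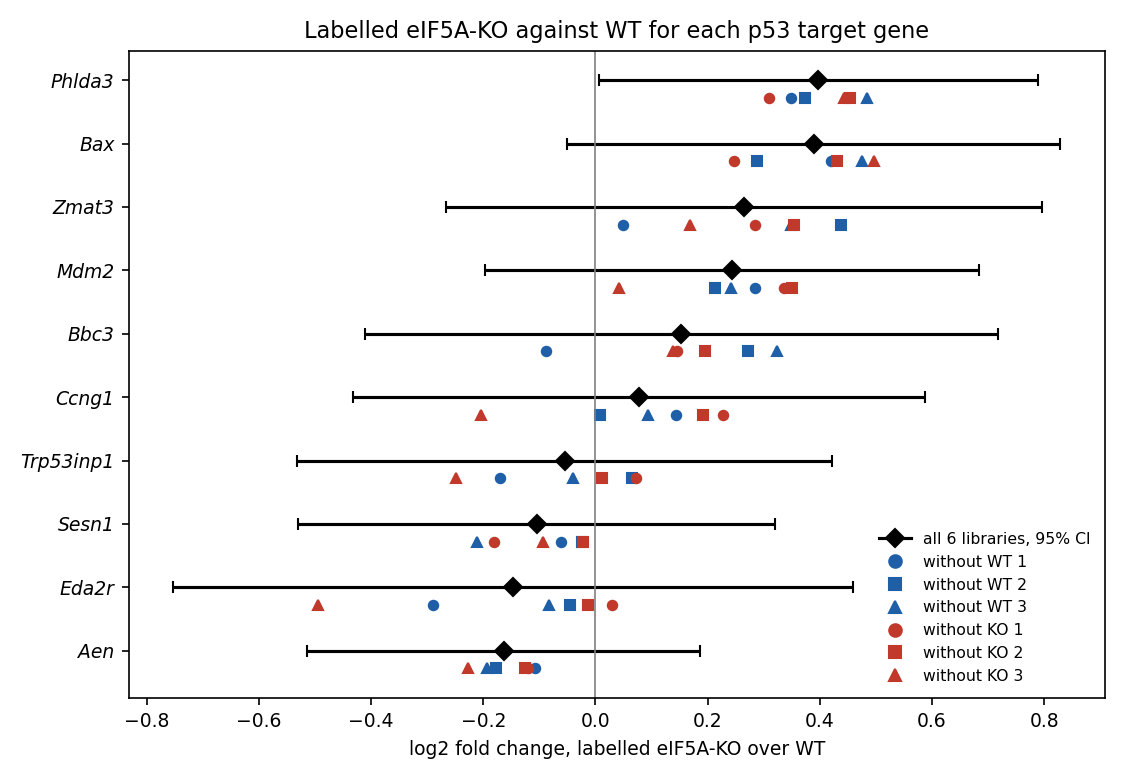
Log2 fold change of each p53 target gene, libraries labelled eIF5A-KO over WT, from edgeR (diamonds, with 95% confidence intervals) and with each library left out in turn (coloured symbols, where KO stands for the label eIF5A-KO). The interval of Phlda3, 0.01 to 0.79, is the one that lies above 0, and Ccng1 falls to -0.20 without replicate 3 labelled eIF5A-KO.

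The targets had different profiles across the 6 libraries. Each gene was scaled to a mean of 0 and an SD of 1 over the libraries on the log2 CPM scale, and the mean of these values over the 10 genes was -0.49 in WT replicate 1, 0.06 in WT replicate 2 and 0.01 in WT replicate 3. The same mean was -0.01, -0.37 and 0.79 in replicates 1 to 3 labelled eIF5A-KO. Above their own mean were 3, 6 and 6 of the 10 targets in WT replicates 1 to 3. In replicates 1 to 3 labelled eIF5A-KO they numbered 5, 3 and 8, and the share over all tested genes was not counted. Replicate 3 labelled eIF5A-KO held the highest level of 5, against 13.1% of all tested genes. Replicate 1 of that label held the highest level of 2, Bax and Phlda3, and the lowest of 4, against 19.4% and 18.5% of all tested genes. Bax and Phlda3 thus peaked in another library than Mdm2, Ccng1 and Eda2r.

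**Figure D3:**
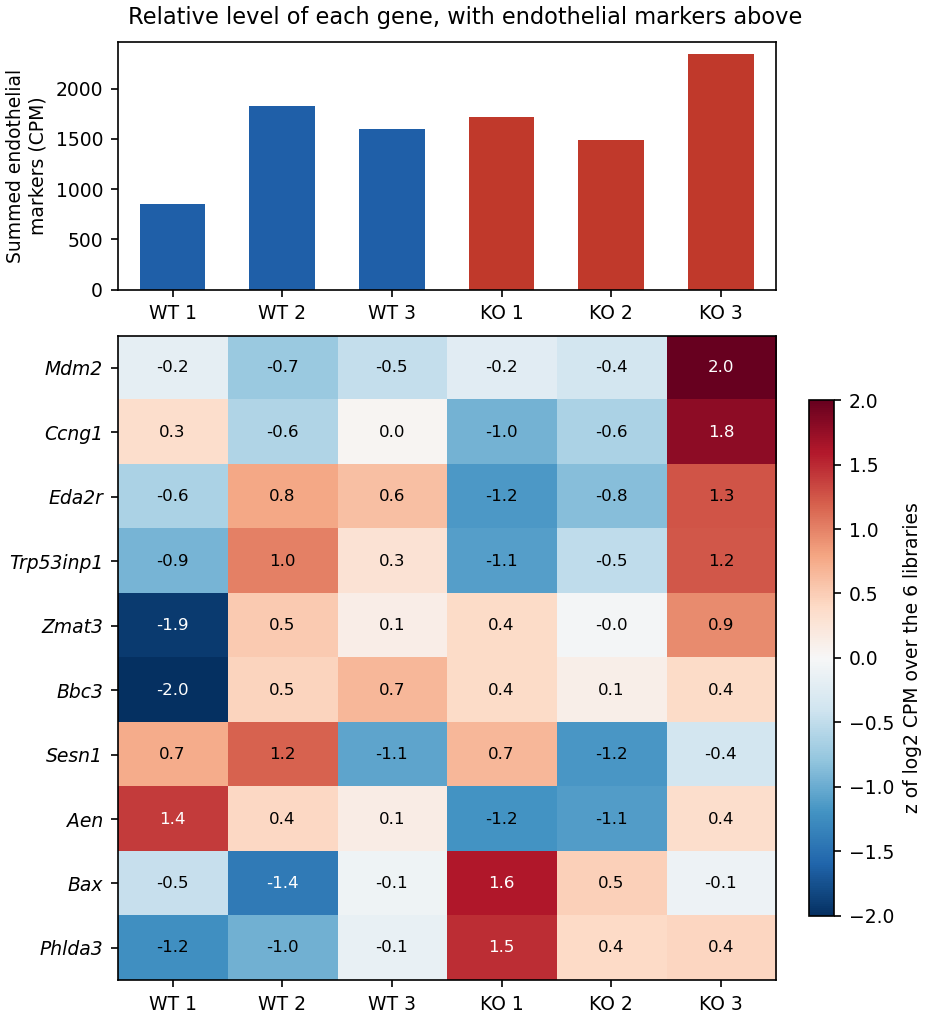
Lower panel: level of each p53 target gene in each library (KO stands for the label eIF5A-KO), as log2 CPM scaled to an SD of 1 over the 6 libraries. Upper panel: summed CPM of 5 endothelial marker genes, which was lowest in WT replicate 1 at 856 CPM and highest in replicate 3 labelled eIF5A-KO at 2351 CPM, as was the mean of the scaled levels of the targets.

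The cultures held transcripts of several cell types. Myogenic markers (Pax7, Myf5, Myod1, Des, Cdh15 and Myog) summed to 517 to 1184 CPM in WT libraries and 427 to 873 CPM in those labelled eIF5A-KO, with 5 of 6 lower, a median log2 fold change of -0.49 and 0 of 6 called. Myog averaged 41.0 CPM in WT libraries and 5.37 CPM in those labelled eIF5A-KO without overlap (log2 fold change -2.91, edgeR adjusted p 0.362). Pax7 averaged 29.9 and 10.6 CPM (log2 fold change -1.49, edgeR adjusted p 0.484), with WT replicate 2 highest at 51.7 CPM. For Pax7 the groups overlapped, with 12.93 CPM in WT replicate 1 and 12.97 CPM in replicate 1 labelled eIF5A-KO. Fibroblast markers summed to 2070 to 2681 and 2140 to 2876 CPM, and macrophage and leukocyte markers to 50.3 to 117 and 52.0 to 143 CPM, again with 0 called. Of the 6 fibroblast markers, 2 were higher, Col1a1 and Col1a2 (log2 fold changes 0.72 and 0.71), and 4 lower, with a median of -0.12. Endothelial markers (Pecam1, Cdh5, Kdr, Tek and Emcn) summed to 856, 1826 and 1603 CPM in WT replicates 1 to 3 and 1721, 1488 and 2351 CPM in those labelled eIF5A-KO. All 5 had a higher mean level there, with a median log2 fold change of 0.42 and 0 of 5 called. Mural markers summed to 305 to 450.5 CPM in WT libraries and 569 to 651 CPM in those labelled eIF5A-KO. All 5 were higher there, with a median log2 fold change of 0.77, and 1 of 5, Myh11, was called at an edgeR adjusted p of 0.0486. Myh11 was also called under 7 of the 18 alternatives and lost the call under 11, among them limma-voom (adjusted p 0.0977), library size alone (0.115) and the omission of any library other than WT replicate 1 (0.0792 to 0.315). No marker was at 0 in all libraries. The part of the endothelial or mural transcripts in the levels of the targets was not tested. Without WT replicate 1 and replicate 3 labelled eIF5A-KO together, a comparison added after the values were seen, the median log2 fold change of the targets was -0.08 in place of 0.12, and 0 of 10 passed the test.

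Among the 5 genes nearest to the mean profile of the targets over the 6 libraries were Ldb2, Picalm, Mylip and Cavin2, by Euclidean distance between scaled profiles among 11028 genes with a mean of at least 5 CPM. Ldb2, a cofactor of LIM domain transcription factors, was the nearest of these 4 at a distance of 0.36. It had 16.9, 24.3 and 24.0 CPM in WT libraries and 22.8, 20.5 and 40.5 CPM in those labelled eIF5A-KO, and was highest in replicate 3 of that label, as were Picalm, Mylip and Cavin2. None of the 4 passed the test, and their edgeR adjusted p ranged from 0.877 to 0.976.

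Of 34 other p53 targets, 32 were expressed highly enough to be tested, and 0 passed the test. Their mean level was higher in the libraries labelled eIF5A-KO for 20 genes and lower for 12, with a median log2 fold change of 0.14. This median was 0.03 without replicate 3 labelled eIF5A-KO, 0.06 without WT replicate 1, 0.22 without WT replicate 3 and 0.23 without replicate 2 labelled eIF5A-KO. At an unadjusted p under 0.05, 3 of the 32 were called, all of them higher, against 2.74% of all tested genes in this direction: Ephx1, Plk3 and Gdf15. Their groups did not overlap, nor did those of 4 others, all 7 higher, against 5.68% of all tested genes. WT replicate 1, which had the largest mitochondrial share and the lowest endothelial sum, held the lowest level of 17 of the 32, against 27.9% of all tested genes, and mural sums were higher in the libraries labelled eIF5A-KO. The part of these in the levels of the other p53 targets was not tested. Ephx1, an epoxide hydrolase, had 112, 139.9 and 126 CPM in WT libraries and 202, 183 and 175 CPM in those labelled eIF5A-KO, with a log2 fold change of 0.56 (SE 0.17) with an edgeR adjusted p of 0.484. Gdf15, a secreted stress factor, had a log2 fold change of 0.65 (SE 0.25, adjusted p of 0.644), and Plk3, a stress kinase, one of 0.54 (SE 0.19, adjusted p of 0.560). Btg2, an antiproliferative factor, averaged 183 CPM in WT libraries and 242 CPM in those labelled eIF5A-KO (log2 fold change 0.40, adjusted p of 0.805, and 0.21 without replicate 1 labelled eIF5A-KO).

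Cdkn1a, the gene of the cell cycle inhibitor p21, had 702, 904 and 1042 CPM in WT libraries and 1269, 1013 and 1046 CPM in those labelled eIF5A-KO. Replicate 1 labelled eIF5A-KO was the highest, as for Bax and Phlda3, and WT replicate 1 the lowest, and the groups overlapped between WT replicate 3 and replicate 2 labelled eIF5A-KO. Its log2 fold change was 0.33 (SE 0.21), with an edgeR adjusted p of 0.863, and 0.20 without WT replicate 1.

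Of 29 regulators of p53, 27 were tested and 0 passed the test. The median log2 fold change was -0.09, with 9 genes higher and 18 lower. Its direction turned without WT replicate 2, at 0.04, and it was -0.18 without WT replicate 1. Of the regulators, 3 were called at an unadjusted p under 0.05, all of them lower, a direction in which 4.02% of all tested genes were called. Cdkn2a, whose Arf product sequesters Mdm2, averaged 3.91 ± 0.53 CPM in WT libraries and 1.07 ± 0.43 CPM in those labelled eIF5A-KO (SD, n = 3), without overlap. Its log2 fold change was -1.77 (SE 0.34), with an edgeR adjusted p of 0.289. DESeq2 gave an adjusted p of 0.00223 for Cdkn2a and edgeR without the filter on low counts gave 0.000988, and the adjusted p over its alternatives ranged up to 0.735. Chek1, a kinase of the DNA damage checkpoint, had a log2 fold change of -0.84 (SE 0.23, adjusted p of 0.407).

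Mdm4, the partner of Mdm2 that masks the activation domain of p53, had 55.7, 68.8 and 60.8 CPM in WT libraries and 31.3, 40.7 and 49.6 CPM in those labelled eIF5A-KO. The groups did not overlap, and the log2 fold change was -0.61 (SE 0.20), with an edgeR adjusted p of 0.557. Atm, the kinase that answers DNA breaks, had a log2 fold change of -0.83 (SE 0.38, adjusted p of 0.767), with overlapping groups, and of -0.34 without WT replicate 2 and -0.54 without replicate 1 labelled eIF5A-KO. Trp53 itself had 158, 201 and 227 CPM in WT libraries and 243, 217 and 226 CPM in those labelled eIF5A-KO, with a log2 fold change of 0.23 (SE 0.18, adjusted p of 0.910). That of Trp53 was 0.10 without WT replicate 1 and 0.35 without WT replicate 3. Activation of p53 is mostly a matter of protein stability, which these data do not measure.

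The 25 cell cycle genes known to be repressed when p53 acts through p21 and the DREAM complex were all tested. All 25 had a lower mean level in the libraries labelled eIF5A-KO, with a median log2 fold change of -0.64, and the groups did not overlap for 20 of them, against 6.83% of all tested genes in this direction. Replicate 3 labelled eIF5A-KO held the lowest level of 20 of the 25, against 14.6% of all tested genes, and WT replicate 1 the highest level of 15, against 27.4%. Those libraries also had the highest and the lowest sum of endothelial markers, and WT replicate 1 had the largest share of mitochondrial counts, at 5.75%. Mural sums were higher and 5 of 6 myogenic markers lower in the libraries labelled eIF5A-KO. The part of all of these in the levels of the cell cycle genes was not tested. With both libraries left out the median was -0.39. At an unadjusted p under 0.05, 16 were called, all lower, against 4.02% of all tested genes, and 0 passed the test after adjustment. Top2a, the topoisomerase of dividing cells, averaged 235 ± 15.7 CPM in WT libraries and 125 ± 14.0 CPM in those labelled eIF5A-KO (SD, n = 3). Its log2 fold change was -0.91 (SE 0.17), with an edgeR adjusted p of 0.242. DESeq2 gave an adjusted p of 0.000426 for Top2a and edgeR without the filter gave 0.00889, and the adjusted p over its alternatives ranged up to 0.814. Ccna2 and Bub1b, which serve mitotic entry and the spindle checkpoint, had log2 fold changes of -0.86 and -0.92, each with an adjusted p of 0.398. Without the filter both passed the test, at an adjusted p of 0.0199 for Ccna2 and 0.0105 for Bub1b, and under the other alternatives neither did. These genes are also expressed by any dividing cell, and their level is not a measure of p53 alone.

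Among 18 other members of the Bcl-2 family, the partners of Bax and Puma, 13 were tested and 0 passed the test, with 0 called at an unadjusted p under 0.05. The mean level was higher for 10 and lower for 3, with a median log2 fold change of 0.14, which was 0.22 without WT replicate 2 and 0.07 without replicate 1 labelled eIF5A-KO. Bak1, the other pore former, had 59.1, 54.3 and 56.1 CPM in WT libraries and 70.6, 76.5 and 63.3 CPM in those labelled eIF5A-KO, without overlap, a log2 fold change of 0.31 (SE 0.16) and an edgeR adjusted p of 0.809. Bcl2l1, whose main product protects mitochondria, had a log2 fold change of 0.28 (SE 0.20, adjusted p of 0.879), and of 0.13 without replicate 1 labelled eIF5A-KO. Bcl2l13 and Pmaip1, the gene of Noxa, had log2 fold changes of -0.21 and 0.31, with adjusted p of 0.910 and 0.912. They were -0.12 for Bcl2l13 without replicate 1 labelled eIF5A-KO and, for Pmaip1, 0.52 without WT replicate 3 and 0.14 without either WT replicate 1 or replicate 3 labelled eIF5A-KO. Pmaip1 is also counted among the other p53 targets.

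**Figure D4:**
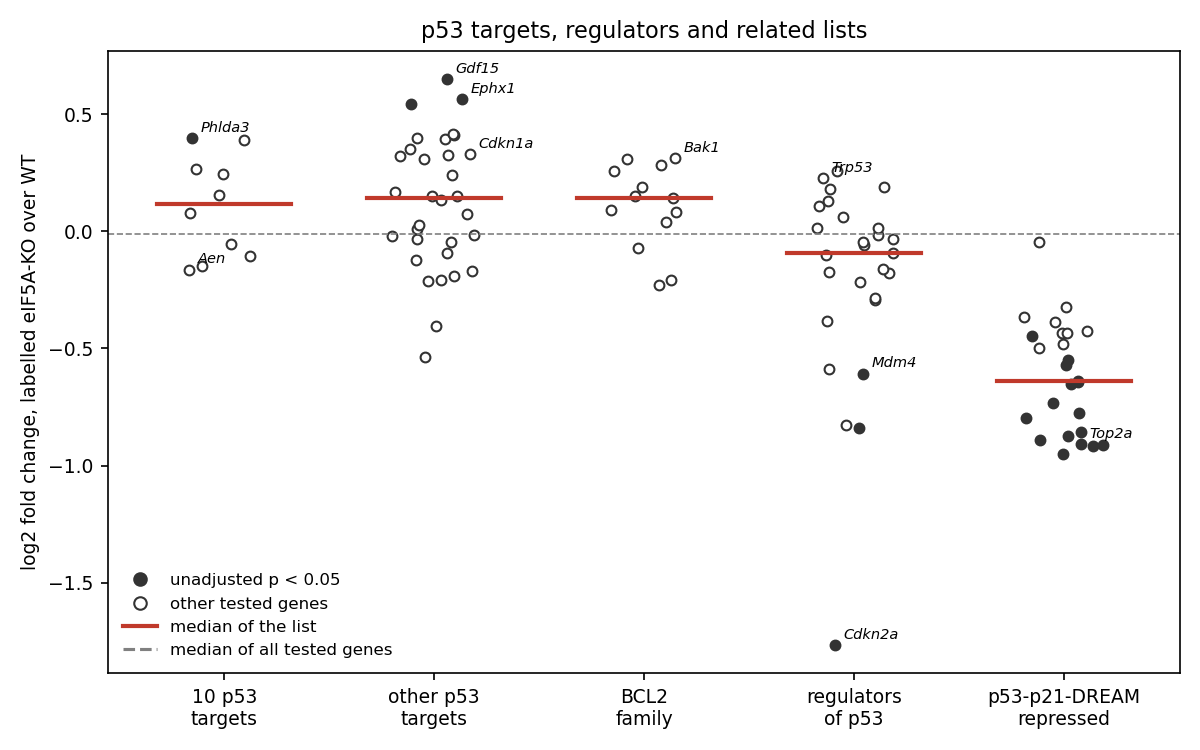
Log2 fold change, libraries labelled eIF5A-KO over WT, of each tested gene of the 10 p53 targets and of 4 related lists (points, filled where the unadjusted edgeR p was under 0.05), with the median of each list (red) and of all tested genes (dashed). The median of the targets is 0.12 (-0.03 without replicate 3 labelled eIF5A-KO) and that of the DREAM-repressed genes is -0.64.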

How the data were processed

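RNA was extracted by the authors with TRIzol, made into libraries with an NEBNext Ultra kit and mapped to mm10 with HISAT, per the labels and the study's methods. The deposited values were raw read counts per gene, with a second deposited table in FPKM and the gene lengths. The study names DEGSeq2 for the read coverage of genes, and the annotation and the counting rules are not given in the sources used here. Checked on the counts, the depth behind the FPKM values was the geometric mean of the totals times each library's median-of-ratios size factor. Gene coordinates were checked against GENCODE M21.

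Counts of all genes passing filterByExpr were fitted with edgeR 4.0.16 in R 4.3.3 (TMM factors, prior count of 2, quasi-likelihood test, no covariate), with Benjamini-Hochberg adjustment over 14679 genes and a threshold of 0.05. The fit was tested on simulated data. Reads carry no molecular identifiers. Copies were searched with blastn 2.17.0, for stretches of at least 200 bases and 90% identity.

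All 10 targets are named, with the 4 genes of smallest unadjusted p in each related list, Cdkn1a, Trp53, Mdm4 and the 5 genes nearest to the mean profile, and 2 of the genes so chosen are not reported here. The members and lists were chosen with earlier results of these data known.

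As alternatives, TMM factors were replaced by library size alone, by upper-quartile factors or by those of DESeq2, or were computed with the 10 most abundant genes and mitochondrial transcripts left out. The filter was dropped or set to 10 counts or more in every library. The test was replaced by limma-voom (limma 3.58.1), DESeq2 1.42.0, or limma on FPKM values on the log2 scale with a pseudocount of 1 or 0.1. A replicate block was added, and each library was left out in turn. WT replicate 1 and replicate 3 labelled eIF5A-KO were also left out together, a choice made after the data were seen, as the libraries with the lowest and highest summed endothelial markers.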

Additional observations from a re-analysis of the deposited data

How the results depend on the processing

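The count of targets past the test was 0 under all 18 alternatives. The count at an unadjusted p under 0.05 was 0 in place of 1 with upper-quartile factors, with library size alone, without the filter, with limma on FPKM at a pseudocount of 1 or 0.1 and with the replicate block, where 5.96% to 6.72% of all tested genes were called, and 0 to 1 when each library was left out, the 1 being Bax without replicate 3 labelled eIF5A-KO (7.12% of all tested genes) in place of Phlda3. Targets whose groups did not overlap numbered 2 in place of 1 without the filter (9.55% of all tested genes), with at least 10 counts in every library (12.4%) and in both FPKM settings (12.5%). When each library was left out they numbered 1 to 5, with 5 without replicate 3 labelled eIF5A-KO (27.4% of all tested genes), 4 without WT replicate 3 (19.8%), 3 without WT replicate 1 (24.9%) and 2 without replicate 2 labelled eIF5A-KO (18.6%). The median of the targets then ran from -0.026, without replicate 3 labelled eIF5A-KO, to 0.19, and that of the regulators of p53 from -0.18, without WT replicate 1, to 0.035, without WT replicate 2. Those of the other p53 targets ran from 0.032, without replicate 3 labelled eIF5A-KO, to 0.23, and of the Bcl-2 family from 0.069, without replicate 1 of that label, to 0.22. Directions turned for Bbc3 (range -0.089 to 0.32, lowest without WT replicate 1), for Trp53inp1 (-0.25 to 0.073, above 0 without WT replicate 2, at 0.066, and without replicates 1 and 2 labelled eIF5A-KO, at 0.073 and 0.011) and for Eda2r (-0.49 to 0.029, above 0 without replicate 1 labelled eIF5A-KO). They turned without replicate 3 of that label for Ccng1 (-0.20 to 0.23), Ldb2 (-0.0073 to 0.55), Picalm (-0.055 to 0.21) and Mylip (-0.091 to 0.16, and -0.0036 without WT replicate 1). Eif5a ran from -0.13, without WT replicate 2, to 0.23, and was -0.0090 and -0.065 without replicates 1 and 2 labelled eIF5A-KO. Phlda3, Bax and Mdm2 stayed above 0 and Sesn1 and Aen below 0 under all 18 alternatives. The cause of these shifts was not tested.

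With WT replicate 1 and replicate 3 labelled eIF5A-KO both left out, chosen after the data were seen, 2 targets (Bax, higher, and Eda2r, lower) had an unadjusted p under 0.05, as 17.7% of all tested genes did, and 7 did not overlap, as 50.5% did. The median was -0.078 for the targets, -0.27 for the regulators and -0.39 for the DREAM-repressed genes. It was 0.030 for the other p53 targets and 0.063 for the Bcl-2 family, and the log2 fold change of Atm was -1.17. Log2 fold changes turned to -0.14 for Ccng1, -0.11 for Bbc3, -0.049 for Zmat3, -0.035 for Pmaip1, -0.15 for Ldb2, -0.11 for Picalm, -0.16 for Mylip and -0.088 for Cavin2. Of the other p53 targets, at least 1 passed the test there (smallest adjusted p 0.026). Many more of all tested genes passed there too than in the main fit, as counted below.

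Whether libraries with the same replicate number are paired is not given in the sources used here. Deviations of same-numbered libraries correlated at 0.084, -0.16 and 0.11. Those of differently numbered libraries ran from -0.27 to 0.27, so these values cannot decide it. With the replicate block, the median of the targets was 0.12 and 24 genes in all passed the test, against 3 without it. Over all 18 alternatives that count ran from 0 to 249, the latter without the filter, with 88 by DESeq2, 56 without WT replicate 1 and 167 without both libraries. With 3 libraries per group, the 95% intervals reach up to 1.73-fold for Phlda3 and 1.78-fold for Bax, and the intervals of all targets except Phlda3 also hold no difference.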
